A study of Oryctolagus cuniculus with 8 samples.

Results

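Lungs with congenital diaphragmatic hernia (CDH) that had been exposed to treprostinil were compared with CDH lungs that had received placebo. The comparison held 6 of the 8 RNA sequencing libraries of the study, all from rabbit lung: 3 of treprostinil-exposed CDH lungs (treprostinil lungs) and 3 of CDH lungs without it, which the titles call unexposed and the treatment labels placebo (placebo lungs). The hernia was created by surgery in all 6, and treprostinil was given on day 24 of a pregnancy whose term is day 31. The remaining 2 libraries were control lungs without treprostinil, used here for the spread between libraries and as levels beside the results. Sample titles carry a code that the labels do not explain: 81 for the 3 treprostinil lungs, 61 for placebo replicates 1 and 2, 56 for placebo replicate 3 and 83 for both controls. Treatment and title code cannot be told apart. The submitters' processing notes name the same aligner and genome build for all 8 libraries, while the sources used here give no preparation batch and no annotation release for any library. Any difference in preparation, alignment or counting between title codes therefore cannot be told apart from treatment. No label says whether the libraries of a group came from separate animals or litters, so the p-values measure the spread between these samples only, and that spread may be technical.

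In congenital diaphragmatic hernia, abdominal organs enter the chest through a defect in the diaphragm, and the lungs develop with few airways and few, thick-walled vessels, which leads to pulmonary hypertension after birth. Treprostinil is a stable analogue of prostacyclin, a lipid mediator that relaxes vascular smooth muscle by raising cyclic AMP and is used to treat pulmonary hypertension. Mitochondria carry a small genome of their own, whose ribosomal RNAs, transfer RNAs and messenger RNAs for respiratory chain subunits are cut from long transcripts of both strands.

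The count table listed 23669 Ensembl gene IDs without names. The reference table at hand listed 0 of them, so no ID could be paired with a symbol, and the labelled tissue could not be checked against marker genes. The 37 IDs from ENSOCUG00000029081 to ENSOCUG00000029117, which follow each other in number and in the table, were taken as the genes of the mitochondrial genome and are given by their position in that run, without gene names. They were set apart from the 23632 nuclear IDs. All levels are CPM, that is counts scaled by each library's nuclear total and by its TMM scaling factor, also taken from nuclear IDs. The 6 libraries held 9147443 to 21904235 nuclear counts and 16732 to 17758 nuclear IDs with at least 1 count. Treprostinil lungs were on the whole the deeper group, with 15174702 nuclear counts or more, against 15304450 or fewer in placebo lungs. In lung tissue as a whole, fewer cells of a type and less RNA per cell cannot be told apart.

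On nuclear IDs alone, the treatment groups separated along the first principal component of log2 CPM, which held 35.3% of the variance among the 6 CDH libraries. Placebo lungs lay at -30.7, -26.9 and -12.6, and treprostinil lungs at 15.1, 24.04 and 31.02. The second component, with 19.8% of the variance, set placebo replicate 3 (36.3) apart from all other libraries, the next highest being treprostinil replicate 1 (10.5). Placebo replicate 3 is also the library with title code 56. The third component, with 18.0% of the variance, divided libraries within each group. The difference between groups was of the size of the differences within them: the median absolute log2 difference per nuclear ID was 0.170 to 0.203 between a placebo and a treprostinil library, 0.161 to 0.184 between placebo libraries and 0.135 to 0.159 between treprostinil libraries. The median SD of log2 CPM was 0.149 in placebo and 0.131 in treprostinil lungs (14485 nuclear IDs).

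**Figure D1:**
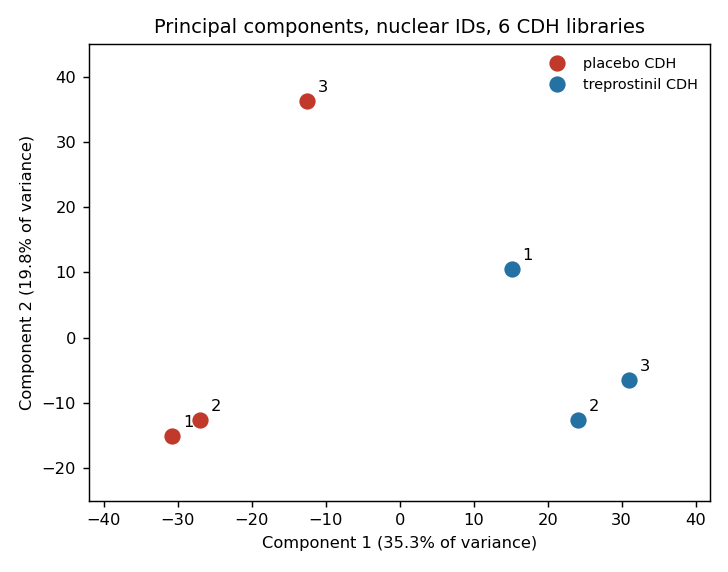
First and second principal components of log2 CPM over 14485 nuclear IDs. Each point is 1 of the 6 CDH libraries, coloured by treatment and numbered by replicate, and both axes are component scores with their share of the variance. All 3 placebo libraries lie below -12 and all 3 treprostinil libraries above 15 on component 1, while placebo replicate 3 stands alone at the top of component 2.

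Few nuclear genes passed the test, and most of those that did were lower with treprostinil. Of 14485 nuclear IDs tested, 187 (1.29%) were called (adjusted p under 0.05 in edgeR's quasi-likelihood test), 48 higher (0.331%) and 139 lower (0.96%), so that 74.3% of the calls were lower. Over all nuclear IDs 7285 had a log2 fold change above 0 and 7200 below 0, with a median of 0.0012, but the scaling centres these values near 0, so they are no contrast to the share of lower calls. At an unadjusted p under 0.05 there were 2210 nuclear IDs. Libraries of the groups did not overlap in any of the 187, as was so for 19.8% of all nuclear IDs tested.

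The falls were mostly small and lay in well expressed genes, whereas the rises spread over a wider range. Among the 139 lower IDs, 71 changed by less than 1.5-fold, 36 by 1.5-fold to under 2-fold, 21 by 2-fold to under 4-fold and 11 by 4-fold or more. Among the 48 higher IDs these numbers were 13, 14, 9 and 12. The median fold was 1.49 (quartiles 1.35 and 1.94) for lower and 1.74 (quartiles 1.45 and 3.67) for higher IDs. The median level was 63.1 CPM for lower, 28.2 CPM for higher and 23.96 CPM for all nuclear IDs tested.

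The share called was larger at higher levels. Nuclear IDs were divided by mean level into 4 bands of equal size. In the lowest band (up to 5.89 CPM) 14 were higher and 16 lower, which is 0.828% of that band. In the highest band (63.9 CPM or more) 15 were higher and 66 lower, 2.24% of the band. The median standard error of the log2 fold change was 0.348 in the lowest and 0.0737 in the highest band. Of 30 calls in the lowest band, 29 were of 2-fold or more, against 5 of 81 in the highest. Among the 100 most abundant nuclear IDs (820 CPM or more), 2 were lower and 0 higher, and their log2 fold changes all lay between -0.46 and 0.50.

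**Figure D2:**
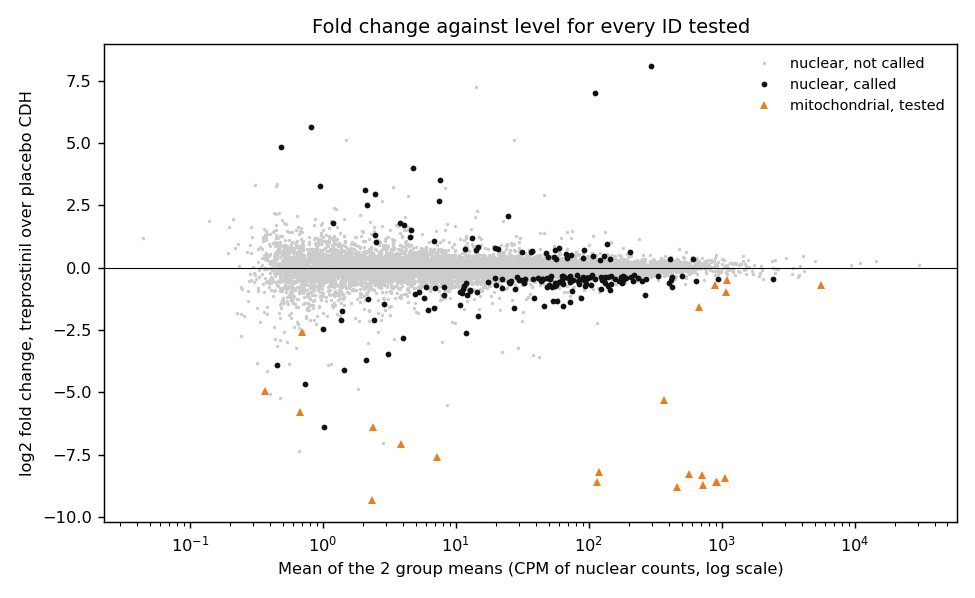
Log2 fold change of treprostinil over placebo lungs (vertical axis) against the mean of both group means in CPM (horizontal axis, log scale) for the 14507 IDs tested. Grey points are nuclear IDs that were not called, black points the 187 nuclear IDs called, and orange triangles the 22 mitochondrial IDs tested. The called nuclear IDs lie close to the zero line at high levels, apart from the pair above 7, and the mitochondrial IDs reach below -8.

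For most nuclear genes the data put a bound on the change. Among the 14298 nuclear IDs that were not called, the 95% interval of the fold change lay within a 2-fold change in either direction for 11639 (81.4%) and within 1.5-fold for 8961 (62.7%). For the other 2659, a 2-fold change was not excluded by the interval.

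The largest rise of a nuclear gene was in ENSOCUG00000026762. Placebo lungs held 2.28, 1.63 and 2.34 CPM, treprostinil lungs 652, 582 and 536 CPM, and controls 588 and 564 CPM. The raw counts were 35, 15 and 35 in placebo lungs against 14634, 12497 and 8135 in treprostinil lungs. Reads counted for this ID were thus few in each placebo library and many in every other library of the study, a log2 fold change of 8.10 ± 0.14 (SE, adjusted p = 2.59e-08 by edgeR). Here and below, the SE is derived from the test statistic and can be too small where a group holds few counts.

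ENSOCUG00000025982 showed the same pattern at a lower level. It held 2.02, 1.30 and 1.61 CPM in placebo lungs, 211, 242 and 209.5 CPM in treprostinil lungs and 213 and 189 CPM in controls. Its log2 fold change was 7.03 ± 0.14 (SE, adjusted p = 4.86e-08 by edgeR). Both IDs stand on consecutive lines of the count table, 23257 and 23258, although their ID numbers are not consecutive. The labels do not say what the order of lines stands for. In both IDs the division runs between title codes. A change in the lungs and a difference in how libraries on either side were prepared, aligned or counted therefore cannot be told apart. The next line with counts, line 23261, held 1782 to 3296 counts in placebo and 2968 to 4147 in treprostinil libraries, with a log2 fold change of -0.02.

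Further rises are ranked among called IDs with a mean of 5 CPM or more in the higher group. The third and the fifth largest also stood on consecutive lines, 16533 and 16534. The third rose 15.97-fold, from 0.326, 0.434 and 0.871 CPM in placebo to 10.6, 10.02 and 6.19 CPM in treprostinil lungs, with 5.14 and 4.07 CPM in controls. The fifth rose 6.42-fold, from 2.15, 2.06 and 1.88 to 15.6, 12.8 and 10.7 CPM, with 9.77 and 5.901 CPM in controls. In both, every treprostinil library stood above every control, and every control above every placebo library. Over all 187 nuclear calls, 6 pairs of lines followed each other directly, 2 with both IDs higher and 4 with both lower. The 2 higher pairs are those given above. Whether 6 is more than 187 IDs placed at random would give was not tested.

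The fourth largest rise was 11.4-fold, from 0.846, 1.63 and 1.27 CPM to 12.1, 15.003 and 14.6 CPM, with 9.10 and 10.9 CPM in controls. The sixth differed in its control level. It held 12.4, 9.99 and 6.16 CPM in placebo lungs, 34.3, 47.01 and 39.1 CPM in treprostinil lungs and 13.2 and 11.6 CPM in controls, a 4.22-fold rise (adjusted p = 0.00672 by edgeR). The treprostinil libraries of this ID stood above all 5 others.

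Further rises were smaller and lay at low levels. The ninth held 3.19, 2.17 and 1.67 CPM in placebo and 6.82, 6.803 and 6.92 CPM in treprostinil lungs, with 1.40 and 1.58 CPM in controls. The twelfth rose 2.10-fold to a mean of 9.30 ± 0.644 CPM (SD, n = 3), from 4.42 ± 1.15 CPM (SD, n = 3). Apart from the pair named above, rises in abundant genes were slight. The most abundant ID called higher went from 526, 545 and 534 to 709.5, 669 and 653 CPM, with 534 and 552 CPM in controls, a 1.27-fold rise (adjusted p = 0.0341 by edgeR).

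The largest fall of a nuclear gene above the level set for named IDs, the same mean of 5 CPM, was in ENSOCUG00000023139. It held 3.52, 6.73 and 6.77 CPM in placebo lungs, 0.446, 0.792 and 0.198 CPM in treprostinil lungs and 11.8 and 11.6 CPM in controls. The treprostinil counts were 10, 17 and 3. The log2 fold change was -3.48 ± 0.41 (SE, adjusted p = 0.00876 by edgeR), and the treprostinil libraries were the lowest of all 8.

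ENSOCUG00000011414 had the next largest fall. Placebo lungs held 7.29, 8.25 and 5.63 CPM, treprostinil lungs 0.535, 1.30 and 1.19 CPM, and controls 5.70 and 3.82 CPM. The log2 fold change was -2.81 ± 0.34 (SE, adjusted p = 0.00962 by edgeR). Without treprostinil replicate 3 the adjusted p was 0.0503, at a log2 fold change of -2.92.

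Other falls differed in how the placebo libraries spread. The third largest went from 33.8, 13.2 and 14.1 CPM to 2.90, 5.17 and 1.91 CPM, and the fourth from 36.7, 16.8 and 16.8 CPM to 7.76, 4.75 and 5.73 CPM. In both, placebo replicate 1 stood more than 2-fold above placebo replicates 2 and 3. Controls held 5.75 and 5.14 CPM of the third and 2.01 and 1.63 CPM of the fourth.

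Several falls were tight in both groups. The smallest p among lower nuclear IDs belonged to one that held 189, 180.5 and 195 CPM in placebo lungs and 98.8, 102.6 and 99.1 CPM in treprostinil lungs, with 152 CPM in both controls, a 1.88-fold fall (log2 change -0.91 ± 0.05 SE, adjusted p = 7.82e-05 by edgeR). Another held 54.1, 58.4 and 51.05 CPM against 22.5, 23.9 and 23.3 CPM, with 58.5 and 55.4 CPM in controls, a 2.35-fold fall (adjusted p = 9.95e-05 by edgeR). One more went from 115, 97.8 and 102.7 CPM to 37.1, 45.4 and 39.6 CPM, a 2.58-fold fall (adjusted p = 0.000267 by edgeR), with 77.96 and 71.5 CPM in controls. In all 3 of these the gap between the groups was wider than the full range within either group. They were the 3 lower nuclear IDs with the smallest p, a ranking that itself favours such gaps.

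Among the most abundant genes called lower, one fell from 2907, 2732 and 2818 CPM to 2164, 1979.7 and 2078 CPM, a 1.36-fold fall (adjusted p = 0.0476 by edgeR), with 3249.7 and 2895 CPM in controls. A second fell from 1074, 1110.5 and 1036 CPM to 745, 809 and 820.5 CPM, also 1.36-fold (adjusted p = 0.0291 by edgeR), with 1323.5 and 1228 CPM in controls. The treprostinil libraries were the lowest of the 8 for both.

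Some called nuclear genes were close to absent in one group. An ID with 0, 0 and 1 counts in placebo lungs had 42, 25 and 27 counts in treprostinil lungs and 8 and 6 in controls. Another had 0, 1 and 0 counts in placebo lungs, 24, 22 and 11 in treprostinil lungs and 3 and 8 in controls. In the other direction, an ID with 44, 21 and 14 counts in placebo lungs had 0, 0 and 1 in treprostinil lungs and 1 and 0 in controls. These 3 were all the tested nuclear IDs with 3 counts or fewer in one group and 10 or more in each library of the other, and they were picked once their values were known.

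The set of calls depended on single libraries. In the fits without placebo replicates 1, 2 and 3, 77, 43 and 168 nuclear IDs were called, of which 63, 36 and 94 were among the 187. Without treprostinil replicates 1, 2 and 3 the numbers were 166, 42 and 29, of which 93, 35 and 27 were among the 187. Without control replicates 1 and 2, 64 and 76 were called, although no control value enters the difference itself. Controls take part through the estimate of the spread, the scaling, the filter on low counts (14750 and 14747 nuclear IDs tested without controls 1 and 2) and the adjustment, and the 1 control left is then taken to scatter as the CDH groups do. All 187 kept their direction in each of these fits, which non-overlapping groups fix beforehand.

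**Figure D3:**
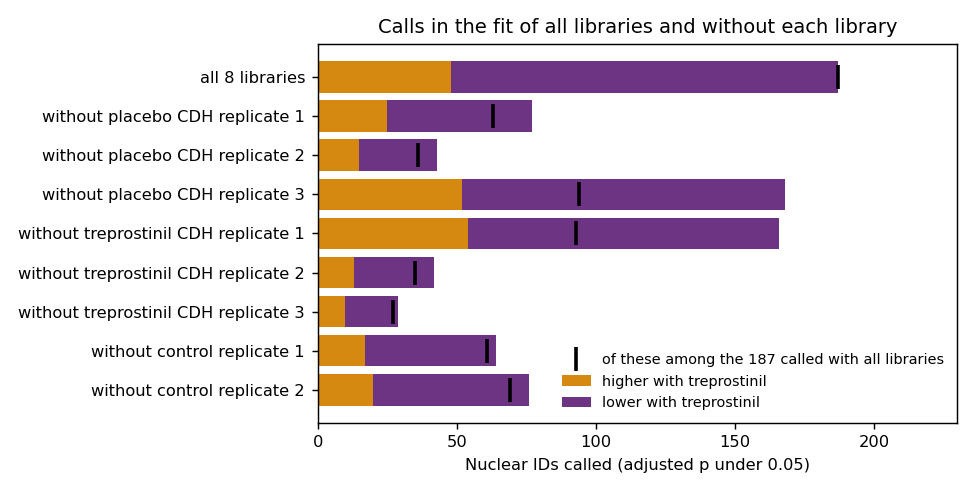
Nuclear IDs called (horizontal axis, adjusted p under 0.05) in the fit of all 8 libraries and in the 8 fits without 1 library. Orange bars are IDs higher and purple bars IDs lower with treprostinil, and the black mark is the number among the 187. Calls run from 29 without treprostinil replicate 3 to 187 with all libraries.

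A core of 21 nuclear IDs was called in the fit of all libraries and in each of the 8 fits without 1 library, 8 higher and 13 lower. All 8 higher ones rose by 2-fold or more. They comprised the 6 rises ranked first above, the ID with 0, 0 and 1 placebo counts and one that went from 0.391, 0.543 and 0.737 CPM to 5.57, 3.63 and 3.95 CPM, with 1.06 and 1.78 CPM in controls. Of the 13 lower ones, 5 fell by 2-fold or more. ENSOCUG00000023139 was the largest of these, and the others were at 51.05 CPM or more in each placebo library. One of them held 68.0, 57.7 and 79.7 CPM in placebo lungs, 22.5, 27.6 and 21.3 CPM in treprostinil lungs and 116 and 84.3 CPM in controls. The smallest change in the core was a 1.42-fold fall from 498, 480 and 492 CPM to 352, 331 and 354 CPM, with 547 and 570.5 CPM in controls.

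**Figure D4:**
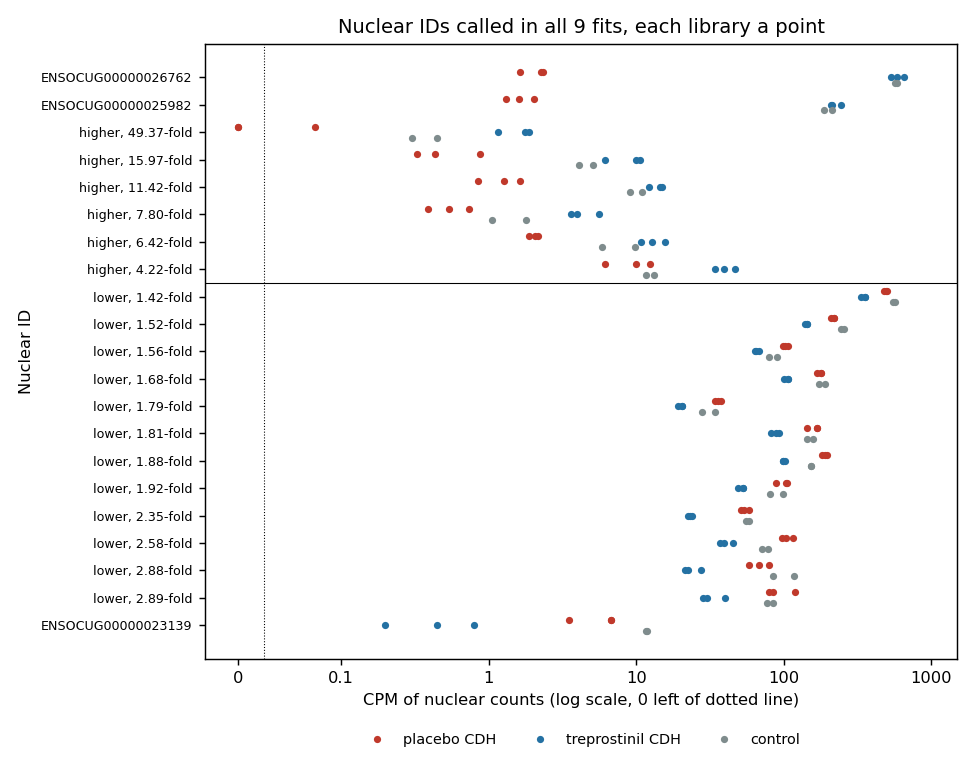
Levels of the 21 nuclear IDs called in all 9 fits, in CPM of nuclear counts (horizontal axis, log scale, with 0 drawn left of the dotted line). Each row is 1 ID, labelled with its ID or its fold change, each point is 1 library, and the horizontal line divides the 8 higher from the 13 lower IDs. Blue points (treprostinil) do not overlap with red points (placebo) in any row, and grey points are controls.

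Large differences between single libraries were also present where nothing was called. There were 21 nuclear IDs with a mean of 5 CPM or more in the higher group and a fitted change of 4-fold or more that did not pass the test, 9 higher and 12 lower. The libraries of the groups overlapped in 12 of the 21 and did not in 9. Of all nuclear IDs tested, 19.8% did not overlap, but the 21 were chosen for a large change. One of the 21 held 62.98 and 21.2 CPM in treprostinil replicates 1 and 3 and 28.2 CPM in control replicate 2, but under 0.4 CPM in the other 5 libraries. Another held 80.3 and 79.1 CPM in treprostinil replicates 2 and 3 and 0.981 to 2.21 CPM in the other 6 libraries. One more held 200.05 CPM in placebo replicate 3 and 193 CPM in control replicate 1, against 4.34 to 7.25 CPM elsewhere. In these 3, which were picked once their values were known, high and low libraries occurred within the same group.

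The largest fold differences between the groups were at mitochondrial IDs. They too run between title codes. A change in the lungs and a difference between title codes in preparation, alignment or counting, on either side, cannot be told apart. Mitochondrial counts made up 2.61%, 2.35% and 2.03% of all counts in placebo replicates 1 to 3 and 0.693%, 0.708% and 0.693% in treprostinil replicates 1 to 3, with 0.643% and 0.632% in controls. The log2 ratio of mitochondrial to nuclear counts was -5.40 ± 0.19 (SD, n = 3) in placebo and -7.15 ± 0.02 (SD, n = 3) in treprostinil lungs, a 3.38-fold lower ratio with treprostinil. The groups did not overlap, and the exact two-sided permutation test gave p = 0.1, the smallest that 3 against 3 libraries can give. Of the 22 mitochondrial IDs that could be tested, 18 (81.8%) were lower with treprostinil and 0 higher (edgeR adjusted p under 0.05).

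The change was not spread evenly along the run. The 15 IDs with a mean of 100 CPM or more in placebo lungs fell into 5 at positions 2 to 16 and 10 at positions 19 to 35, a division made with the values in view. The 5 early ones summed to 12985, 12436 and 9839.7 CPM in placebo lungs and to 6695, 7239 and 6947 CPM in treprostinil lungs, with 6456 and 6575 CPM in controls, a 1.69-fold difference of the group means. The 10 later ones summed to 13619, 11466 and 10504 CPM in placebo lungs and to 79.2, 34.4 and 28.2 CPM in treprostinil lungs, with 16.4 and 15.01 CPM in controls, a 251-fold difference of the group means. Treprostinil replicate 1 held the most of these counts in its group, and without it the difference was 379-fold. Without any 1 of the other 5 CDH libraries it was 209-fold to 265-fold, all of these values having been added after seeing the data. The later positions therefore held 50.5% of the mitochondrial counts in placebo lungs, 0.711% in treprostinil lungs and 0.240% in control lungs. For each sum the exact permutation p was 0.1, with 0.1 the smallest possible.

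**Figure D5:**
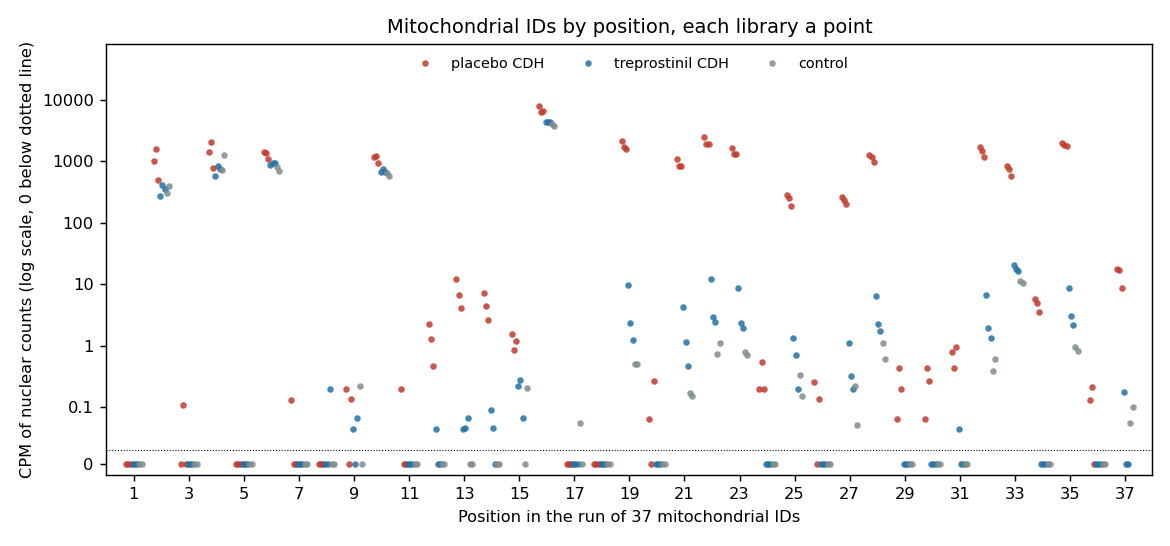
Levels of the 37 mitochondrial IDs by position in their run (horizontal axis) in CPM of nuclear counts (vertical axis, log scale, with 0 drawn below the dotted line). Each point is 1 library, red for placebo, blue for treprostinil and grey for control. Placebo means stand 1.41-fold to 2.95-fold above treprostinil means at positions 2, 4, 6, 10 and 16, and 39.4-fold to 471-fold above them for the abundant IDs from position 19 on.

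Among the early positions, 2 of 5 IDs were called lower. Position 16, the most abundant, held 7986, 6215.5 and 6562 CPM in placebo lungs, 4319, 4309 and 4243 CPM in treprostinil lungs and 3986 and 3665 CPM in controls (log2 change -0.69 ± 0.12 SE, adjusted p = 0.0328 by edgeR). It took 29.8% of the mitochondrial counts in placebo lungs and 61.3% in treprostinil lungs. Position 10 held 1147, 1232 and 929.5 CPM against 665, 737 and 657 CPM (log2 change -0.68 ± 0.11 SE, adjusted p = 0.0304 by edgeR). Position 6 held 1431.5, 1359 and 1088 CPM against 860.3, 946.5 and 940.5 CPM, a log2 fold change of -0.50 that did not pass the test (adjusted p = 0.0801 by edgeR).

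Positions 2 and 4 varied most among placebo libraries. Position 2 held 988, 1553 and 487 CPM in placebo and 271, 405 and 350.3 CPM in treprostinil lungs (adjusted p = 0.0827 by edgeR). Position 4 held 1432, 2076 and 773 CPM against 579.8, 842 and 757 CPM (adjusted p = 0.229 by edgeR), and its groups overlapped. In both, placebo replicate 3, with title code 56, was the lowest placebo library and placebo replicate 2 the highest.

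All 10 abundant IDs at the later positions were called lower. For 9 of them the treprostinil mean was 0.212% to 0.314% of the placebo mean, over IDs whose placebo means ran from 231 to 2104 CPM. Without treprostinil replicate 1 these shares were lower, 0.0891% to 0.189%. Position 21 had the largest ratio, with 1079, 841.5 and 818 CPM in placebo lungs, 4.19, 1.16 and 0.461 CPM in treprostinil lungs and 0.168 and 0.153 CPM in controls (log2 change -8.77 ± 0.48 SE, adjusted p = 7.29e-05 by edgeR). Position 22 had the highest placebo level of the later IDs, 2464, 1929.9 and 1919 CPM, against 12.3, 2.89 and 2.44 CPM (adjusted p = 0.000262 by edgeR), with 0.726 and 1.12 CPM in controls.

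Position 33 stood apart from the other 9. It held 839, 732 and 572 CPM in placebo lungs, 20.5, 17.4 and 16.5 CPM in treprostinil lungs and 11.2 and 10.3 CPM in controls. Its treprostinil mean was 2.54% of the placebo mean (log2 change -5.30 ± 0.16 SE, adjusted p = 1.55e-06 by edgeR).

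The residual counts at the later positions were uneven among treprostinil lungs. Replicates 1, 2 and 3 held 1778, 739 and 428 counts there in total. Over the 9 IDs other than position 33, replicate 1 held 58.8 CPM, replicate 2 17.01 CPM and replicate 3 11.7 CPM, so that replicate 1 stood 3.46-fold above replicate 2 and 5.04-fold above replicate 3. At position 33 the 3 libraries lay between 16.5 and 20.5 CPM.

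The remaining 22 mitochondrial IDs were low in all libraries and held 0.153% of the mitochondrial counts in placebo lungs. Of them 15 did not pass the filter on low counts, with at most 5 counts in any library, and 3 of the 37 had 0 counts in all 8 libraries. Of the 7 tested, 6 were called lower, with placebo means of 0.718 to 14.4 CPM and at most 4 counts in a treprostinil library. Position 37 went from 17.4, 17.2 and 8.58 CPM to 0.178, 0 and 0 CPM. Position 34 had 89, 45 and 52 counts in placebo lungs and 0 in each treprostinil and control library, which is at least 93.0-fold lower with treprostinil with 3 counts over the 3 treprostinil libraries as the limit. Low IDs before position 16 shared this pattern: positions 12, 13 and 14 were called lower (adjusted p = 0.0433, 0.00405 and 0.00876 by edgeR), with at most 2 counts in a treprostinil library, while position 15 was not (adjusted p = 0.0885 by edgeR).

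Setting the mitochondrial genes apart in the scaling hardly moved the nuclear result, but they remained in the fit and in the adjustment of p. With library sizes and scaling over all IDs, 188 nuclear IDs were called, 186 of them among the 187. When mitochondrial IDs were left out of the fit altogether, 167 nuclear IDs were called, 39 higher and 128 lower, all of them among the 187. The pair of large nuclear rises and the fall of the later mitochondrial IDs divided the libraries in the same way, with the 3 placebo libraries on one side and the 3 treprostinil and 2 control libraries on the other. Together the pair held 2.93 to 4.30 CPM in placebo and 746 to 863 CPM in treprostinil libraries. The group means of the summed later mitochondrial IDs differed by 11816 CPM. A link between the pair and these IDs was not tested. Placebo libraries carry title codes 61 and 56 and the other libraries 81 and 83, so that treatment and title code cannot be told apart in this division either, nor can a difference in preparation, alignment or counting that followed the codes.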

How the data were processed

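Rabbit lung RNA was sequenced in 8 libraries, and the authors deposited raw counts, whole numbers of reads per Ensembl gene ID, with no normalization. The submitters' processing notes name STAR 2.5.2b, Trimmomatic 0.36, OryCun2.0 as the genome build, and DESeq2. The counting program, annotation release and strand setting were not given in the sources used here, so reads of overlapping, antisense or near-identical genes may be split or lost. RNA was extracted with RNeasy (Qiagen), per the labels' protocols. Groups came from sample titles. Total counts ran from 9367924 to 22060353 per library, and no 2 libraries held identical counts.

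Library sizes and TMM factors (0.965 to 1.03) were taken from nuclear IDs only. After filterByExpr, 14507 IDs entered 1 edgeR 4.0.16 quasi-likelihood fit (R 4.3.3) over the 3 groups with all 8 libraries, which leaves 5 residual degrees of freedom. Adjustment was over all 14507 IDs, with calls at 0.05. Standard errors were derived from the F statistic. The fit was tested on simulated data. log2 CPM for components used a prior count of 2. Named nuclear IDs are the 2 largest rises and 2 largest falls among calls whose higher group had a mean of at least 5 CPM and whose libraries did not overlap, conditions met by 39 higher and 128 lower IDs. Other IDs are described by value, and their choice followed ranks by fold, level or p. Gene lists for pathways and cell types could not be matched without symbols and were not tested. The comparison, the run of 37 IDs and the lists were chosen with earlier results of these data known.

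Alternatives were RLE scaling, scaling over all IDs, 2 other filters on low counts, limma 3.58.1 with voom, DESeq2 1.42.0, the 6 CDH libraries alone, nuclear IDs alone, a block on the last number of the title code, and leaving out each library.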

Additional observations from a re-analysis of the deposited data

How the results depend on the processing

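The 187 nuclear and 18 mitochondrial calls stayed within 1.5 times under RLE scaling, scaling over all IDs, limma with voom and both other low-count filters, and the nuclear calls also when only nuclear IDs were fitted. DESeq2 called 623 nuclear IDs, among them all 187, and the cause was not tested. With only the 6 CDH libraries, 93 nuclear IDs were called, from fewer samples. With the last number of the title code as a replicate block, 13 nuclear and 11 mitochondrial IDs were called. The adjusted p of ENSOCUG00000023139 and ENSOCUG00000011414 was then 0.0716 and 0.10 by edgeR. Only treprostinil replicate 3 carries its last number, so this block also takes that library out of the comparison. Leaving it out without a block gave 29 nuclear and 14 mitochondrial calls. Whether the last number of the title code pairs the libraries was not settled. In the 8 pairs with equal numbers, deviations from the group mean had correlations of -0.07 to 0.07. In pairs with unequal numbers these were -0.11 to 0.0723. Between placebo and treprostinil libraries alone they were 0.0345 to 0.0715 with equal and -0.11 to 0.0466 with unequal numbers. Deviations within a group cancel out, which ties the correlations to each other in groups this small, so they cannot decide it. Leaving out 1 library gave 29 to 168 nuclear and 13 to 19 mitochondrial calls. The difference in the log2 ratio of mitochondrial to nuclear counts was -1.76, between -1.85 and -1.67 without 1 library, and -1.73 for the share of all counts. The 187 kept their direction in each alternative that tested them, which non-overlapping groups largely fix beforehand.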
